A study of Mus musculus with 6 samples.

Results

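Translation initiation factors are the proteins that bring the small ribosomal subunit, the initiator tRNA and an mRNA together at a start codon. Their genes were examined in mouse B-cell acute lymphoblastic leukaemia cells driven by the BCR-ABL fusion kinase. Members were the genes with a probe set that the platform annotation pairs with exactly 1 symbol starting with Eif1, Eif2b, Eif2d, Eif2s, Eif3, Eif4, Eif5 or Eif6, without Eif2s1, Eif2b4, Eif2b5, Eif4ebp1 and Eif4ebp2. This gave 41 of the 22180 genes on the array, and the brightest probe set by the mean over the 6 arrays stood for each gene. Of the 41, 40 lay above the filter on dim genes (4.52 on the log2 scale, the 30th percentile of gene means). Eif2s3y was the member below it.

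The vehicle group was 3 samples given dimethyl sulphoxide (DMSO) and the treated group 3 samples given 312 nM dihydroartemisinin (DHA), the active metabolite of the artemisinin antimalarials, each for 4 h. All 6 samples carried the BCR-ABL oncogene. The growth protocol lists p185+ and p185T315I+ leukaemia lines that were Arf-/- or p53-/-, and does not say which line or how many clones were used on these arrays. The extraction protocol names 2 h beside 4 h, while the treatment protocol names 4 h alone. Replicates were numbered in accession order, and nothing in the labels says that they were separate cultures, so each p-value reflects the spread among these 6 samples, and that spread could be technical.

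Pairwise Pearson correlations of the 6 arrays lay between 0.9925 and 0.9947, and array medians between 5.25 and 5.31. Of 12 B-cell precursor markers, 10 were measured, 8 of them above 8 on the log2 scale, led by the surrogate light chain gene Igll1 (12.98). No measured marker of T and NK cells, of myeloid cells or of erythroid cells and megakaryocytes exceeded 8, with highest means of 4.72 for Cd4, 5.26 for Elane and 5.43 for Klf1. The summed linear intensity of the B-cell precursor markers was 30601 to 31726 with vehicle and 30441 to 31534 with DHA. In bulk RNA, fewer cells of a type and less RNA per cell cannot be told apart.

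As background, initiation begins when eIF2 carries the initiator tRNA to the small subunit, where eIF1, eIF1A, eIF3 and eIF5 also bind. The eIF4 factors open the capped mRNA and hand it to this complex, which scans to the start codon. GTP hydrolysis on eIF2, prompted by eIF5, commits the complex, and eIF2B recharges eIF2 with GTP. Phosphorylation of eIF2 blocks that exchange and lowers general protein synthesis, while a few mRNAs such as that of Atf4 are translated more. These arrays measured RNA, and neither protein nor phosphorylation was analysed here.

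None of the 40 tested members was called changed by DHA at a limma Benjamini-Hochberg adjusted p at or under 0.05, where 0.0902% of all 15526 tested genes were called (14 genes; 0.0837% called higher and 0.00644% called lower). The smallest adjusted p of a member was 0.2503, for Eif5a2. At an unadjusted limma p under 0.05, which is no call, 6 of the 40 members were counted beside 12% of all tested genes. Only Eif5 was among these on the higher side, where 5.94% of all genes lay. Eif1ax, Eif1b, Eif3j1, Eif4e2 and Eif5a2 were on the lower side, where 6.08% of all genes lay. The count of 6 is close to the background share, and it was 3 without vehicle replicate 3, without DHA replicate 1 or without DHA replicate 3.

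The members' log2 fold changes (DHA minus vehicle) ran from -0.37 to 0.20, with 18 higher and 22 lower. Their median was -0.011, beside 0.0027 over all tested genes. The median size of the change without its sign was 0.051 for the members and 0.067 for all tested genes. The groups did not overlap for 8 of the 40 members, beside 15.8% of all tested genes. Of these, 3 were on the higher side (7.64% of all tested genes) and 5 on the lower (8.19%). Over the 1120 tested genes at least as bright as the members' median, the median log2 fold change was -0.016 and the median size 0.056. In that brighter set 22.3% of genes had groups that did not overlap and 14.4% an unadjusted limma p under 0.05. The limits of change were narrow: the 95% limma interval, not adjusted for the number of genes, lay within 0.5 on either side of no change (1.41-fold) for 38 of the 40 members and within 0.25 (1.19-fold) for 25. All 40 intervals lay within 1, a 2-fold change.

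**Figure D1:**
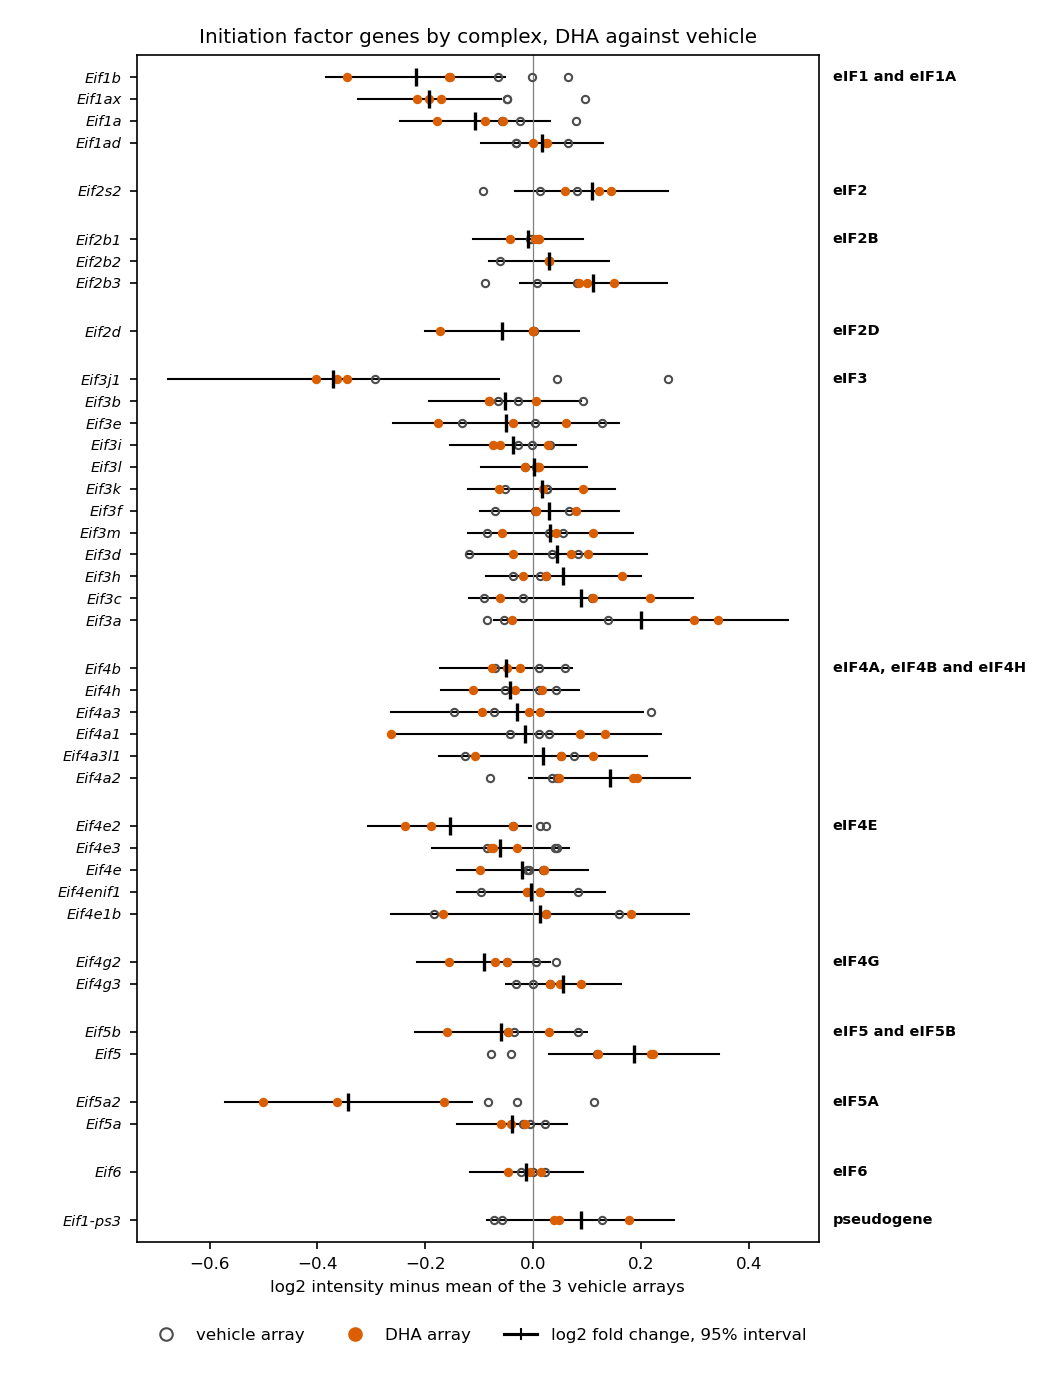
Each row is an initiation factor gene, grouped by complex, and the horizontal axis is log2 intensity minus the mean of the 3 vehicle arrays. Open circles are vehicle arrays, filled circles DHA arrays, and the bar with a tick is the log2 fold change with its 95% limma interval. Most rows cross 0, and those of Eif3j1 (-0.37), Eif5a2 (-0.34) and Eif1b (-0.22) lie farthest to the left.

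**Figure D2:**
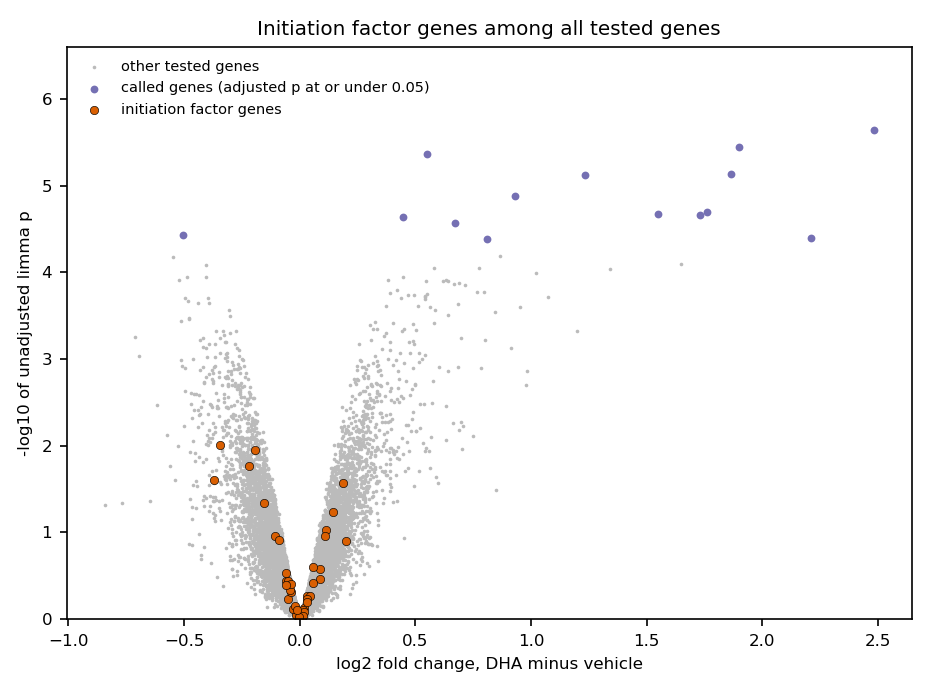
The horizontal axis is the log2 fold change (DHA minus vehicle) and the vertical axis the negative log10 of the unadjusted limma p, for 15526 tested genes. The 40 tested initiation factor genes lie between -0.37 and 0.20, apart from the 14 called genes.

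The promoters of 4 members were chosen for display because these genes include the smallest unadjusted p in each direction. Eif5 was the single member on the higher side, and Eif5a2, Eif1ax and Eif1b had the 3 smallest p on the lower side. Sequences run 5′ to 3′ from 250 bases before to 50 after the annotated start, from RefSeq on build GRCm38.p6, all on the plus strand: Eif5 at chr12:111537851-111538150, Eif1b at chr9:120492356-120492655, Eif1ax at chrX:159371928-159372227 and Eif5a2 at chr3:28781027-28781326. Capitals mark the E-box CACGTG, bound by MYC and related factors, and the ETS core CCGGAAGT on either strand.
Eif5: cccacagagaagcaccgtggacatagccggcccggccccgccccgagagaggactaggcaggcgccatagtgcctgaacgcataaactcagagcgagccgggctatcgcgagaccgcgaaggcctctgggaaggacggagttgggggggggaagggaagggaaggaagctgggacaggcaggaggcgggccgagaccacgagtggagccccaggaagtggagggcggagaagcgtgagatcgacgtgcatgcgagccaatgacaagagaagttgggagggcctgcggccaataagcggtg
Eif1b: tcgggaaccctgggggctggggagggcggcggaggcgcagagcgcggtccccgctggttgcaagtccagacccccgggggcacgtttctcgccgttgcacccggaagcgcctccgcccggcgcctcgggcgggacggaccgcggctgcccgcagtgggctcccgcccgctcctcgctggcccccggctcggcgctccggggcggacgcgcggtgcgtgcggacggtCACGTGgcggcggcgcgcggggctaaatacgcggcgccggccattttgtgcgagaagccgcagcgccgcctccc
Eif1ax: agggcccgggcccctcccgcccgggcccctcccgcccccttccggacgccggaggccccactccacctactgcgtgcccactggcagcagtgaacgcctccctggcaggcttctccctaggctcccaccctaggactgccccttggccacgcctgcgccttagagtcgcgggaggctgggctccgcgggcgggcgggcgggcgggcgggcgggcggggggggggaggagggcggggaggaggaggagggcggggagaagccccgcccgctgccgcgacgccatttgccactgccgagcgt
Eif5a2: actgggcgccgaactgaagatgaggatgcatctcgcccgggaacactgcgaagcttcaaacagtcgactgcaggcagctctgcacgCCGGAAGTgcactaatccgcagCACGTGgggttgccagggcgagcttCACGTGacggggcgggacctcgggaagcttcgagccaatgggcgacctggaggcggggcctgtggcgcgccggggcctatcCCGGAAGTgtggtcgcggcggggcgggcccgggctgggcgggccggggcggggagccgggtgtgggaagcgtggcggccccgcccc
Eif1b held 1 E-box, 24 bases before its start, and Eif5a2 held 2 E-boxes and 2 ETS cores. The windows of Eif5 and Eif1ax held neither.

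A promoter window was given for 31 of the 41 members, and a gene with several annotated starts was counted once if any of its windows held a motif. The E-box occurred in 9 of these 31 (29.0%), beside 8.09% of 27025 genes with a window. Those 9 were Eif1b, Eif3a, Eif3f, Eif3k, Eif4a1, Eif4e, Eif4h, Eif5a and Eif5a2, whose differences between DHA and vehicle had both signs. The ETS core occurred in 6 (19.4%, beside 4.31% of all genes). The composite ATF4 and C/EBP element TGATGNAA, searched on both strands, was in none of the 31 and in 4.51% of all genes with a window. Likewise the cyclic AMP response element TGACGTCA was in none of the 31 and in 2.03% of all genes. A C followed by at least 4 pyrimidines at the annotated start, the form of a terminal oligopyrimidine tract, was found in Eif3f alone, beside 3.01% of all genes. Members' windows had a median GC content of 62.7%, against 52.7% for all windows, and these shares were not adjusted for it. A match of letters is a description and says nothing of binding.

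eIF1 and eIF1A keep the scanning complex open and help choose the start codon. Grouped here by symbol were Eif1a, Eif1ax, Eif1b and Eif1ad, the last for a protein with an eIF1A-like domain. The median log2 fold change over these 4 genes was -0.15, with 3 of 4 lower, beside 7572 of all 15526 tested genes. Limma called 0, and 2 lay lower at an unadjusted p under 0.05, beside 6.08% of all tested genes. Eif1b encodes a close relative of eIF1, the factor that discriminates against wrong start codons. It measured 10.22, 10.28 and 10.15 on the vehicle arrays and 10.06, 10.06 and 9.87 on the DHA arrays. All 3 DHA values lay below all 3 vehicle values, with DHA replicate 3 the lowest. On the log2 scale the difference was -0.22 (SE 0.070; limma, adjusted p = 0.303).

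Eif1ax, the X-linked gene for eIF1A, measured 10.60, 10.74 and 10.60 with vehicle and 10.45, 10.47 and 10.43 with DHA. The groups did not overlap, and the DHA arrays lay closer together (SD 0.023) than the vehicle arrays (SD 0.083). Its log2 fold change was -0.19 (SE 0.056; limma, adjusted p = 0.260). The unadjusted limma p stayed under 0.05 in 17 of the 17 settings tried, the main one included. That number was 16 for Eif1b and Eif5a2, 12 for Eif5, 11 for Eif3j1 and 10 for Eif4e2. All settings drew on the same 6 arrays, so they are not independent of each other. Eif1a, the autosomal relative of Eif1ax, measured 8.95, 9.06 and 8.92 with vehicle and 8.80, 8.89 and 8.92 with DHA. Here DHA replicate 3 lay level with vehicle replicate 3, so the groups overlapped (log2 fold change -0.11, SE 0.058; limma, adjusted p = 0.520). Eif1ad, which encodes a protein with an eIF1A-like domain, differed by 0.016 (SE 0.048). Eif1 itself was not analysed here. Eif1-ps3, which RefSeq lists as a pseudogene, had a log2 fold change of 0.089 (SE 0.073) and was kept apart from the eIF1 group.

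eIF5 acts against eIF1 in this step, as it prompts GTP hydrolysis on eIF2 when the start codon is found. Eif5 measured 11.27, 11.46 and 11.30 with vehicle and 11.565, 11.464 and 11.562 with DHA. DHA replicates 1 and 3 stood clear of the vehicle arrays, whereas DHA replicate 2 (11.4638) was barely above vehicle replicate 2 (11.4612). DHA exceeded vehicle by 0.19 (SE 0.067; 95% bounds 0.029 and 0.35), a 1.14-fold higher level that was not called (limma adjusted p = 0.343). Leaving out 1 array gave 0.15 to 0.25. Eif5b, the GTPase that joins the large subunit, measured 7.95, 8.08 and 7.96 with vehicle and 7.95, 7.84 and 8.03 with DHA, with overlapping groups (log2 fold change -0.059, SE 0.067; -0.10 to -0.0087 on leaving out 1 array).

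**Figure D3:**
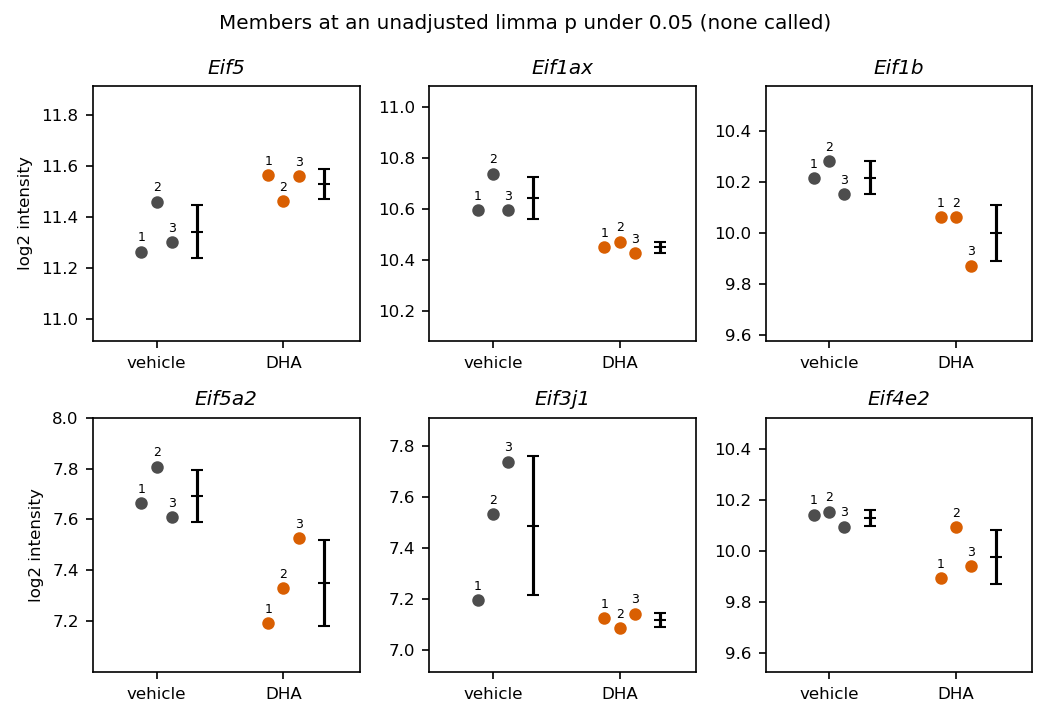
Log2 intensity on each array is on the vertical axis, for the 6 members at an unadjusted limma p under 0.05, with replicate numbers beside the points and the mean and SD (n = 3) as a bar to the right of each group. Each panel spans 1 log2 unit. Eif5 lies higher with DHA and the other 5 lower, and the groups come within 0.01 of each other for Eif5 and Eif4e2.

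eIF2 delivers the initiator tRNA, and eIF2B is its guanine nucleotide exchange factor, the step that eIF2 phosphorylation blocks. Eif2s2, the beta subunit of eIF2, measured 8.61, 8.67 and 8.50 with vehicle and 8.72, 8.65 and 8.74 with DHA. The groups overlapped through vehicle replicate 2 and DHA replicate 2, and the log2 fold change was 0.11 (SE 0.059; limma, adjusted p = 0.522). Eif2s3y, the Y-linked gamma subunit gene, lay between 2.91 and 3.29 on all 6 arrays and was not tested. Its X-linked relative Eif2s3x was measured only by 2 probe sets shared with Gm2223, with log2 fold changes of -0.023 and -0.073.

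Over the 3 eIF2B subunit genes the median log2 fold change was 0.030. Eif2b3, the gamma subunit, measured 8.19, 8.26 and 8.09 with vehicle and 8.28, 8.26 and 8.33 with DHA. Its groups were separate, though DHA replicate 2 (8.2647) stood just above vehicle replicate 2 (8.2608), and the log2 fold change was 0.11 (SE 0.057; limma, adjusted p = 0.4997). Eif2b1 (alpha) measured 9.29, 9.30 and 9.29 with vehicle and 9.25, 9.30 and 9.30 with DHA, a difference of -0.0094 (SE 0.043). The log2 fold change of Eif2b2 (beta), 0.030 (SE 0.047), was the median of the 3 and rested on vehicle replicate 2 alone. Eif2b2 held exactly the same value, 9.859, on 5 of the 6 arrays and 9.768 on that one. The same deposited value on at least 2 arrays occurred in 13 of the 40 tested members (32.5%) and in 35.2% of all tested genes. On at least 4 arrays it occurred in 2 members (5%) and in 4.26% of all tested genes. Eif2d, which delivers tRNA to the ribosome outside the eIF2 route, held one value on 4 arrays, and DHA replicate 3 alone was low (8.07 against 8.25; log2 fold change -0.058, SE 0.060).

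Eif2b4 and Eif2b5, the other subunits of eIF2B, had log2 fold changes of 0.0072 (SE 0.043) and -0.068 (SE 0.071) in the same fit. Eif2s1 was not analysed here.

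eIF3 is the largest initiation factor and the scaffold on which the others assemble on the small subunit. Across its 12 tested subunit genes the median log2 fold change was 0.023, with 8 higher and 4 lower. Limma called 0, and 1 lay lower at an unadjusted p under 0.05, beside 6.08% of all tested genes. The sign of that median rested on single arrays, as it was -0.0079 without vehicle replicate 3 and -0.0049 without DHA replicate 1. For 10 of the 12 the change was under 0.1 in size. Of the octamer core, Eif3a had 0.20, Eif3c 0.089, Eif3e -0.050, Eif3f 0.030, Eif3h 0.056, Eif3k 0.016, Eif3l 0.0018 and Eif3m 0.032. Of the subunits attached to that core, Eif3b had -0.052, Eif3d 0.045 and Eif3i -0.037. Eif3l was the most tightly measured member, with a 95% interval from -0.097 to 0.10.

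Eif3a, the largest subunit, measured 10.39, 10.62 and 10.42 with vehicle and 10.78, 10.44 and 10.82 with DHA. DHA replicates 1 and 3 were the 2 highest arrays, but DHA replicate 2 lay among the vehicle arrays and below vehicle replicate 2. Its difference of 0.20 (SE 0.11; limma, adjusted p = 0.536) became 0.32 without DHA replicate 2. Eif3c had the same shape, at 11.48, 11.61 and 11.41 with vehicle and 11.61, 11.44 and 11.72 with DHA. The subunit genes were often lowest on an array of each group, and the titles of these 2 samples share a code whose meaning is not given. DHA replicate 2 was the lowest DHA array for 9 of the 12 subunits, beside 35.9% of all tested genes. Vehicle replicate 3 was the lowest vehicle array for 8 of the 12, beside 32.3% of all tested genes. Over all 40 members DHA replicate 2 and vehicle replicate 3 were the lowest of their group for 20 and 19, beside the same 35.9% and 32.3%. Arrays without that code stood out too. Vehicle replicate 2 was the highest vehicle array for 23 of the 40 members, beside 32.5% of all tested genes. DHA replicate 1 was the highest DHA array for 7 of the 12 eIF3 genes, beside 31% of all tested genes. The mean level over the 12 eIF3 genes was 10.84 on DHA replicate 2, against 10.96 and 10.93 on the other DHA arrays. It was 10.88 on vehicle replicate 3, against 10.90 and 10.96 on the other vehicle arrays. With a term for the shared code, the difference for Eif3a kept its size with an SE of 0.088 (limma, unadjusted p = 0.064, adjusted p = 0.402). With both samples left out it was 0.29 (SE 0.094; limma, unadjusted p = 0.038, adjusted p = 0.469), and the eIF3 median was 0.017.

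Eif3j1 encodes the loosely bound eIF3j subunit, which sits near the mRNA channel of the small subunit, and had the lowest log2 fold change of any member. It measured 7.20, 7.53 and 7.74 with vehicle and 7.13, 7.09 and 7.14 with DHA. The DHA arrays were tightly grouped (SD 0.029) and the vehicle arrays spread (SD 0.27), with vehicle replicate 1 close above the DHA values. The difference between group means was -0.37 (SE 0.13; 95% bounds -0.68 and -0.063; limma, adjusted p = 0.336). With any 1 array left out it was between -0.52 and -0.25, the latter without vehicle replicate 3. A brighter probe set that the annotation pairs with both Eif3j1 and its near copy Eif3j2 measured 9.09, 9.58 and 9.18 with vehicle and 9.18, 9.23 and 9.08 with DHA. There the groups overlapped and the difference was -0.12 (SE 0.14), so the value for eIF3j is uncertain.

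The eIF4A helicases unwind the leader of the mRNA, helped by eIF4B and eIF4H. Over the 6 tested genes of this group the median log2 fold change was -0.022, with 2 higher and 4 lower. There were 0 at a limma unadjusted p under 0.05, beside 12% of all tested genes. Eif4a1, the main helicase, measured 12.57, 12.51 and 12.59 with vehicle and 12.64, 12.69 and 12.29 with DHA. DHA replicates 1 and 2 were the highest arrays and DHA replicate 3 the lowest, so the log2 fold change of -0.014 (SE 0.11) was 0.11 without DHA replicate 3. A second Eif4a1 probe set gave -0.031. Eif4b had -0.050 (SE 0.051) and Eif4h -0.042 (SE 0.054), both with overlapping groups.

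Eif4a2, the paralogue of Eif4a1, was the member whose probe sets disagreed. The brightest single-gene set measured 9.99, 9.87 and 10.00 with vehicle and 10.14, 10.003 and 10.15 with DHA. Its groups did not overlap, by a margin of 0.01 or less. It gave a difference of 0.14 (SE 0.063; limma, adjusted p = 0.435). Another probe set measured 8.87, 9.44 and 9.01 with vehicle and 8.93, 9.13 and 8.06 with DHA, where DHA replicate 3 alone was far down (difference -0.40). A dim probe set gave -0.24, also with DHA replicate 3 the lowest at 5.01. Among the sets shared with small nucleolar RNA genes that Eif4a2 hosts in its introns, the set shared with Snora81 measured 6.16, 6.24 and 6.29 with vehicle and 5.38, 6.13 and 5.74 with DHA (difference -0.48). The groups of the Snora81 set did not overlap, and the set shared with Snord2 differed by -0.022. A set shared with Rfc4, brighter than all of these, differed by 0.050 (SE 0.069) with overlapping groups. The direction for Eif4a2 therefore depended on the probe set: the mean of its single-gene sets gave -0.17.

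Eif4a3, the helicase of the exon junction complex, had -0.029 (SE 0.098) on its own probe set and -0.029 on a set shared with Eif4a3l1 and Gm5576. Eif4a3l1, which RefSeq lists as protein coding, had 0.018 (SE 0.081).

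**Figure D4:**
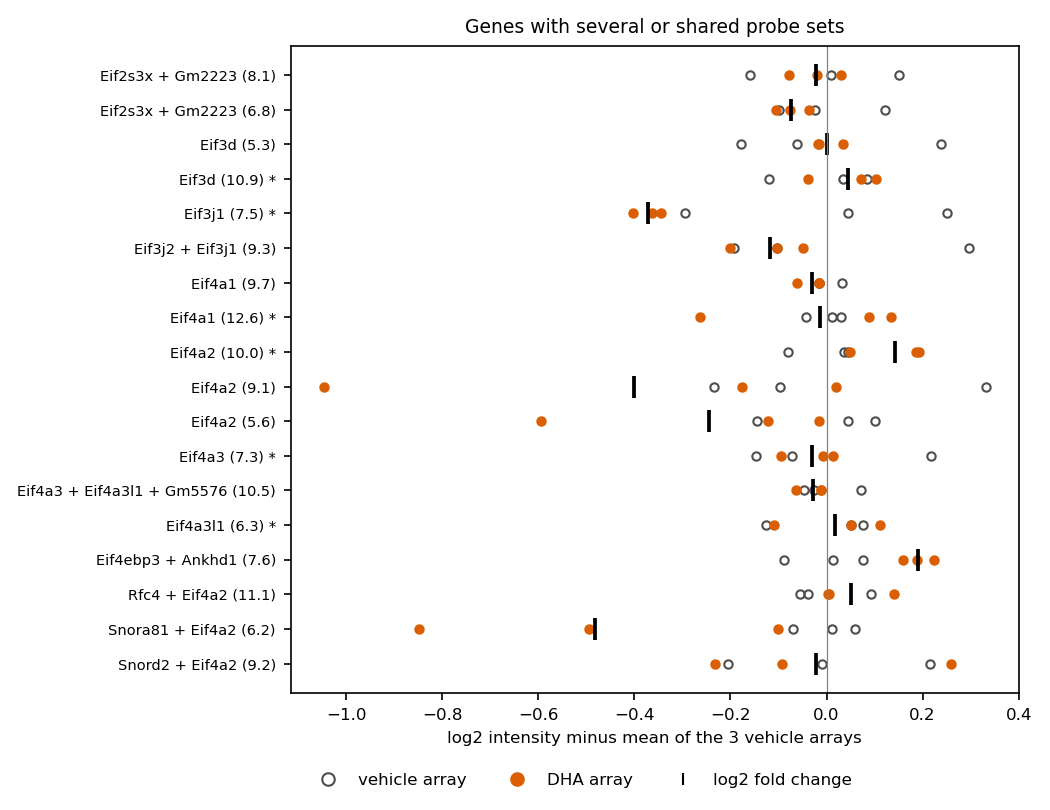
Each row is a probe set of a gene with several or shared probe sets, with its vehicle mean on the log2 scale in brackets and a star where it stood for the gene. The horizontal axis is log2 intensity minus the vehicle mean, open circles are vehicle arrays, filled circles DHA arrays and ticks the log2 fold changes. The 3 single-gene Eif4a2 sets lie at 0.14, -0.40 and -0.24.

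eIF4E binds the mRNA cap, and its relatives and binding proteins tune that step. Over the 5 tested genes the median log2 fold change was -0.020, with 1 higher and 4 lower. Limma called 0, and 1 lay lower at an unadjusted p under 0.05, beside 6.08% of all tested genes. Eif4e, the cap-binding subunit that translation depends on, measured 10.70, 10.72 and 10.69 with vehicle and 10.72, 10.61 and 10.72 with DHA. It was flat apart from a low DHA replicate 2 (log2 fold change -0.020, SE 0.051, 95% interval -0.14 to 0.10). Eif4e2, whose product binds the cap without recruiting eIF4G and can repress translation, measured 10.14, 10.16 and 10.096 with vehicle and 9.89, 10.095 and 9.94 with DHA. DHA replicates 1 and 3 lay lowest, and DHA replicate 2 (10.0951) touched vehicle replicate 3 (10.0956). The difference of -0.15 (SE 0.063; limma, adjusted p = 0.404) was -0.21 without DHA replicate 2. Its unadjusted p was 0.0507 with a term for the title code that this array shares with vehicle replicate 3.

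Eif4e3, another cap-binding relative, had -0.061 (SE 0.053; limma, adjusted p = 0.691), with vehicle replicate 2 (8.37) below the lowest DHA array (8.38). Eif4enif1, which carries eIF4E into the nucleus and into processing bodies, had -0.0035 (SE 0.058). Eif4e1b, a relative known from oocytes, lay near the filter at 4.57 with vehicle and 4.58 with DHA. Eif4ebp1 and Eif4ebp2, genes of the inhibitors that compete with eIF4G for eIF4E, had 0.49 (SE 0.076; limma, adjusted p = 0.0894) and -0.072 (SE 0.048; limma, adjusted p = 0.596) in the same fit.

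eIF4G proteins link the cap complex to eIF3. Eif4g2 encodes a form without the eIF4E site, used in cap-independent initiation. It measured 11.61, 11.70 and 11.67 with vehicle and 11.50, 11.59 and 11.61 with DHA, and the groups met where vehicle replicate 1 and DHA replicate 3 held the same value. The group means differed by -0.091 (SE 0.052; limma, adjusted p = 0.535). Eif4g3 measured 9.32, 9.26 and 9.29 with vehicle and 9.32, 9.38 and 9.34 with DHA, a difference of 0.056 (SE 0.045; limma, adjusted p = 0.661) with the groups again meeting at one shared value. Eif4g1 was not analysed here.

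eIF5A is a factor modified with hypusine that helps the ribosome through difficult peptide bonds and in termination. Eif5a2, the gene of its tissue-restricted form, measured 7.66, 7.81 and 7.61 with vehicle and 7.19, 7.33 and 7.53 with DHA. Each DHA array lay below each vehicle array, with DHA replicate 1 the lowest. The group means differed by -0.34 (SE 0.096; 95% bounds -0.57 and -0.11), a level 1.27-fold lower with DHA that was not called (limma adjusted p = 0.2503). The common form Eif5a measured 10.90, 10.91 and 10.94 with vehicle and 10.86, 10.90 and 10.88 with DHA, a difference of -0.039 (SE 0.043; limma, adjusted p = 0.754). Whether the 2 paralogues differ in their response was not tested. Eif6, which keeps the large subunit from joining too early, lay between 11.20 and 11.27 on all 6 arrays (log2 fold change -0.012, SE 0.044).

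Of 20 listed regulators and partners of initiation, 17 were tested, with a median log2 fold change of -0.029. Limma called 0 of them. At an unadjusted limma p under 0.05, 1 lay higher and 2 lower, beside 5.94% and 6.08% of all tested genes. Mknk2, a kinase of eIF4E, measured 11.17, 11.19 and 11.09 with vehicle and 10.77, 10.89 and 11.02 with DHA (log2 fold change -0.26, SE 0.074; limma, adjusted p = 0.259). Its relative Mknk1 lay on the other side, at 8.08, 7.95 and 8.09 with vehicle and 8.22, 8.23 and 8.15 with DHA (0.16, SE 0.057; limma, adjusted p = 0.342). Bzw1, a mimic of eIF5 that competes with it for eIF2, measured 11.26, 11.52 and 11.36 with vehicle and 11.06, 11.19 and 11.11 with DHA. Its log2 fold change was -0.26 (SE 0.075; limma, adjusted p = 0.264), opposite in sign to that of Eif5. Neither gene was called, and whether they differ in their response was not tested.

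Of 10 listed elongation and termination factors, 9 were tested, with a median of -0.017. Limma called 0. On the lower side at an unadjusted limma p under 0.05, where 6.08% of all tested genes lay, there was 1, Gspt1. This gene for the termination GTPase eRF3 measured 9.52, 9.68 and 9.45 with vehicle and 9.24, 9.37 and 9.32 with DHA (-0.24, SE 0.072; limma, adjusted p = 0.276). The elongation factors Eef1a1 (0.030) and Eef2 (0.010) differed by less than their SE of 0.043.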

How the data were processed

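The authors deposited log2 intensities, 1 value per probe set and sample, from Affymetrix arrays hybridised with biotin-labelled cRNA. The submitters' processing notes name RMA and Partek version 6.6. The sources used here give neither settings nor a genome build. As usually run, RMA subtracts background, equalises distributions and summarises probes, which tends to understate changes of dim genes. Of 41345 probe sets, 23521 had 1 symbol, 1814 several and 16010 none. Current symbols came from RefSeq's GRCm38.p6 gene table by Entrez identifier, which matched 23328 probe sets.

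The brightest probe set stood for each of 22180 genes. A filter at the 30th percentile of gene means left 15526. DHA was compared with vehicle over all of them with limma (version 3.58.1; R 4.3.3; eBayes, two-sided, 4 residual and 2.77 prior degrees of freedom), with Benjamini-Hochberg adjustment over all tested genes. Intervals are 95% and unadjusted. With 3 arrays a group an exact permutation test cannot go below 0.1, and the number of arrays limits the precision. The fit was tested on simulated data with independent noise. For recovery that test required only changes far larger than any member's to be found. It therefore does not show that changes of the members' size would be called. Members, lists and the naming rule were chosen with earlier results of these data known. The naming rule took each member at an unadjusted p under 0.05, the largest rise and fall of each complex and the pairs of close relatives. Related genes were named at an unadjusted p under 0.05, and Eef1a1 and Eef2 were picked with their values in view. The alternatives left out arrays or used other filters, scalings, probe set rules, variance settings and thresholds. The same alternatives were added for the related genes after seeing the data. Promoter sequences are RefSeq's.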

Additional observations from a re-analysis of the deposited data

Results flagged for a closer look

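A probe set that the annotation pairs with both Eif4ebp3, a gene of the eIF4E-binding proteins, and its neighbour Ankhd1 lay outside the comparisons because it names 2 genes. It measured 7.59, 7.49 and 7.65 with vehicle and 7.77, 7.80 and 7.74 with DHA. All 3 DHA values were above all 3 vehicle values, as in 7.64% of all tested genes, which drew attention to it. The difference was 0.19076 on the log2 scale (SE 0.060; limma, adjusted p = 0.482 over all probe sets above the filter), so it was not called. Which of the genes carries the signal cannot be told apart. Only the higher side was searched for such sets. On the lower side, where 8.19% of all tested genes had separate groups, the set shared by Snora81 and Eif4a2 did too (difference -0.48).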

How the results depend on the processing

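No paired analysis was possible because the labels number no replicates. A title code that recurs in 1 sample of each group (vehicle replicate 3, DHA replicate 2) was fitted as a term instead: 0 members and 41 of all genes were called, against 14 in the two-group fit, and 5 members (1 higher, 4 lower) lay at an unadjusted p under 0.05, beside 13.4% of all genes. Eif4e2 left that count (unadjusted p = 0.0507; limma, adjusted p = 0.375). The count of called members was 0 with limma in each of the 18 alternatives run for it. In some of these it could not be otherwise, because 0 of all 15526 tested genes were called. That held without both samples of that code and on leaving out any 1 array except DHA replicate 2, where 24 were called. Other fits called from 5 (no filter) to 63 (quantile normalization) of all genes at an adjusted p at or under 0.05. The number of members at an unadjusted p under 0.05 went from 3 to 7 on leaving out 1 array (0 to 3 higher, 2 to 4 lower), beside 8.73% to 12.1% of all genes. The number of members with separate groups was then 10 to 13 (3 to 7 higher, 6 to 8 lower), 25% to 32.5% of them beside 23.2% to 26.8% of all genes, as fewer arrays separate more easily. With both samples of that code left out there were 2 higher and 3 lower at an unadjusted p under 0.05, beside 10.1% of all genes, and 15 with separate groups (7 higher, 8 lower), 37.5% beside 37.4% of all genes. Trend and robust moderation gave 2 higher and 5 lower at an unadjusted p under 0.05, beside 12.3% of all genes in either direction. Median centring gave 1 member with separate groups on the higher side and 7 on the lower, beside 15.1% of all genes in either direction. Leaving out 1 array, the eIF3 median ranged from -0.0079 to 0.044, the eIF2B median from 0 to 0.045, the eIF4E median from -0.053 to -0.026 and that of eIF4A, eIF4B and eIF4H from -0.040 to 0.022. The eIF2B median was 0.021 with array weights and 0.045 without both such samples. Signs turned for Eif2b1 (-0.019 to 0.0073), Eif4a1 (-0.088 to 0.11), Eif4e (-0.040 to 0.020) and Eif4e1b (-0.079 to 0.10) on leaving out 1 array. They also turned for Eif1ad (-0.0040) and Eif4e (0.014) without both such samples and for Eif4a2 with the mean of probe sets (-0.17) or the one of highest variance (-0.40). Of the 21 members taken by the naming rule, 9 kept their sign but moved over 1.5 times on leaving out 1 array: Eif1a (-0.14 to -0.067), Eif1ad (0.00035 to 0.049), Eif2b3 (0.067 to 0.15), Eif3a (0.13 to 0.32), Eif3j1 (-0.52 to -0.25), Eif4b (-0.085 to -0.020), Eif4e3 (-0.10 to -0.039), Eif4g2 (-0.12 to -0.059) and Eif5b (-0.10 to -0.0087). Apart from fewer arrays, the cause was not tested. With 3 arrays a group, signal over background was not analysed and the number of arrays limits the precision.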
